A study of Mus musculus with 8 samples.

Results

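The report describes 9 genes of JAK-STAT and gp130 receptor signalling in rib chondrocytes of mice with and without Mir140: the receptor chains Il6st, Lifr and Osmr, the kinases Jak1 and Jak2, the transcription factors Stat3 and Stat5b, and the inhibitors Socs1 and Socs3. They were selected by name, with the fold changes between these libraries already known, from the 52325 gene identifiers that each library lists. All 9 passed the filter on low values. Mean levels of Il6st, Lifr, Osmr, Jak1, Jak2 and Stat5b were 1.525 to 1.98 times as high in Mir140-null as in wild-type chondrocytes (4 libraries each), while Stat3, Socs1 and Socs3 had overlapping levels. The values by genotype are a description. The 9 genes were part of the fit over all genes, but since they were chosen from this same comparison, its calls for them are given as counts only, without p-values, and nothing is concluded from how many differ.

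RNA-seq was performed on costal chondrocytes, the cells of rib cartilage, from 7-day-old mice. There were 4 wild-type (WT) libraries and 4 Mir140-null libraries, all on the C57BL/6J strain background. The null allele is a CRISPR/Cas9 deletion of the Mir140 locus, and both the WT and the null line came out of crosses between heterozygotes. Founders were of mixed C57BL/6 and CBA/ca origin, the deletion was made in zygotes and so is not limited to cartilage, and the labels give neither litter nor sex. Chondrocytes were freed with collagenase, poly(A) RNA was sequenced with a stranded protocol, and the authors deposited transcripts per 1000000 (TPM), a level per gene already divided by transcript length and by the library total. The values of every library sum to 1000000, and the reads behind a single value cannot be recovered from them.

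The Mir140 hairpin, at chr8:107551244-107551313 of mm10, had a value above 0 in a single library, Mir140-null replicate 2 (8.86 TPM). These values do not check the genotypes, which were taken from the labels; per the study's methods, mice were genotyped by PCR of ear tissue and Sanger sequencing. The study also measured mature miR-140 by qRT-PCR in rib chondrocyte RNA of both genotypes and sequenced several of those RNA samples. Chondrocyte markers were abundant in every library: the 11 markers summed to 74819, 75339, 60144 and 73668 TPM in WT replicates 1 to 4, and to 44531, 60666, 45674 and 60817 TPM in Mir140-null replicates 1 to 4. Col2a1 was the most abundant of them. Of the 11, limma called 1 (Acan) higher and 3 (Hapln1, Col9a1 and Col11a1) lower in Mir140-null chondrocytes (adjusted p under 0.05, Benjamini-Hochberg method).

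Mir140-null replicates 1 and 2 stood apart from the other libraries. Their 10 markers of fibroblasts and perichondrium, the connective tissue around cartilage, summed to 1015 and 1198 TPM, against 5747 and 4418 TPM in the other Mir140-null libraries (replicates 3 and 4) and 3793 to 6707 TPM in WT. Col1a1, the chain of type I collagen, was at 47.8 and 50.1 TPM in those libraries and between 793 and 1544 TPM in the other 6. The most abundant gene of the list on average was Col1a2. Of the 10, Pdgfra and Twist2 were called higher and Dcn and Fap lower. Fewer cells of a type and less RNA per cell cannot be told apart in such samples. The part of these markers in the results below was not tested.

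The share of TPM from mitochondrially encoded genes was 4.06% to 6.99% in WT and 8.41% to 10.1% in Mir140-null libraries. Genes at 0.5 TPM or more numbered 17128, 17950, 17826 and 17766 in WT and 15800, 16056, 17435 and 16991 in Mir140-null replicates 1 to 4. Immediate-early genes, which respond within minutes to growth factors, cytokines and tissue handling, differed as well. The 12 immediate-early and heat-shock genes summed to 16636, 8413, 9761 and 10440 TPM in WT and 3931, 6002, 5272 and 4553 TPM in Mir140-null libraries, with Atf3 the most abundant, and 8 of the 12 were called lower and 0 higher. The 8 were all immediate-early genes. For the heat-shock genes Hspa1a and Hspa1b the groups overlapped and neither was called (log2 fold changes -0.07 and 0.07, limma adjusted p = 0.887 and 0.885). The part of this list in the results below was not tested either.

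**Figure D1:**
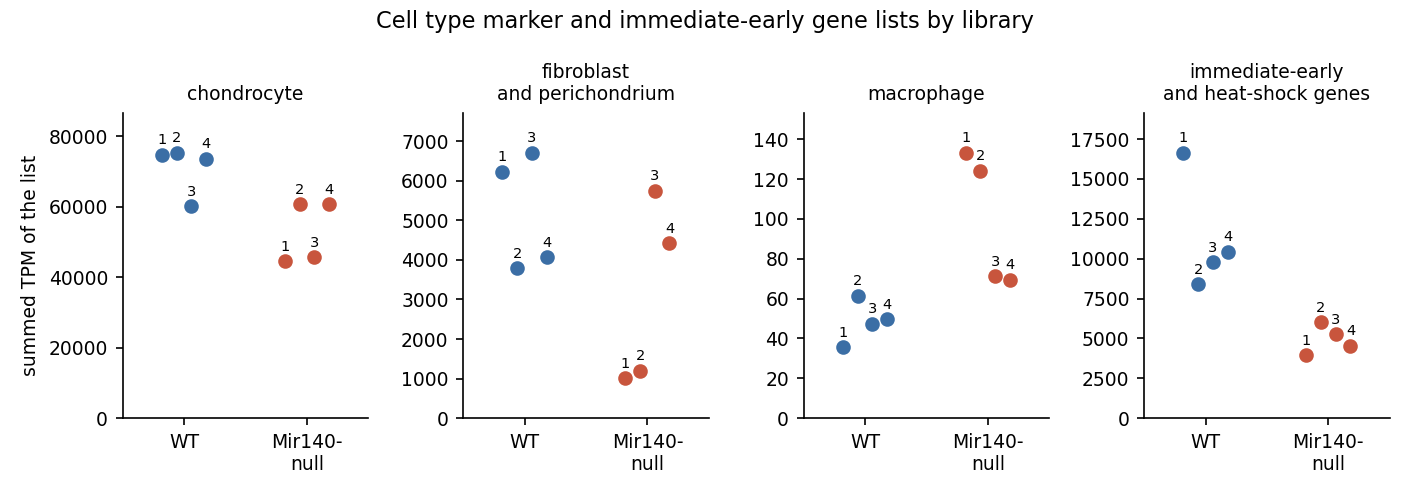
Summed TPM (vertical axes, each starting at 0) of 4 gene lists in the WT (blue) and Mir140-null (red) libraries, with replicate numbers beside the points. Fibroblast and perichondrium markers were low in Mir140-null replicates 1 and 2, at 1015 and 1198 TPM, and the immediate-early and heat-shock list was below every WT library in all 4 Mir140-null libraries.

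The macrophage list needs its members named. It summed to 35.5, 61.5, 47.5 and 49.6 TPM in WT and 133, 124, 71.2 and 69.5 TPM in Mir140-null libraries, nearly all of it from Cd14, the lipopolysaccharide co-receptor, and Cd68. Cd14 was called higher and Lyz2 lower. The defining genes Adgre1, C1qa and C1qb were under 0.5 TPM in every library. No lymphocyte marker passed the filter on low values. Among 4 neutrophil markers tested, Camp was called higher, while Mpo and Elane were under 0.5 TPM throughout. No marker of osteoblasts (0 of 5 tested), endothelium (0 of 5), skeletal muscle (0 of 3), erythroid cells (0 of 5) or adipocytes (0 of 1) was called by limma; at an unadjusted p under 0.05 there were 1, 0, 1, 0 and 0. Several of these lists were low in Mir140-null replicates 1 and 2 all the same. Osteoblast markers, of which Alpl was the most abundant, summed to 5.67 and 4.64 TPM there and 15.1 to 26.7 TPM in the other 6 libraries. Erythroid markers, led by Hbb-bs, summed to 432 and 256 TPM there and 646 to 1854 TPM in the others. Skeletal muscle markers, led by Tnnt3, summed to 61.1 to 96.1 TPM in WT and 33.5 to 57.3 TPM in Mir140-null libraries, without overlap. The part of these lists in the results below was not tested.

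Signalling by the interleukin-6 family of cytokines starts when a ligand joins gp130, the product of Il6st, to a partner chain such as the leukaemia inhibitory factor receptor (Lifr) or the oncostatin M receptor (Osmr). JAK kinases bound to the receptor tails then phosphorylate each other, the receptor and STAT proteins, which pair, enter the nucleus and bind DNA. SOCS proteins are made in response and shut the receptor complex down. In cartilage, oncostatin M and leukaemia inhibitory factor are known for promoting matrix breakdown, and growth hormone acts on the growth plate through Jak2 and Stat5b.

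The deleted locus makes a microRNA whose 3p arm occurs with 2 start sites, and the sequences are shown because the seed, bases 2 to 8, determines which transcripts are predicted targets. The annotated form, miR-140-3p.2, is RefSeq's mature sequence at chr8:107551288-107551308 of GRCm38.p6, plus strand. The shifted form, miR-140-3p.1, is written here as the same sequence from its second base on. Capitals mark the seed.
miR-140-3p.2: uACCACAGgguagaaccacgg
miR-140-3p.1: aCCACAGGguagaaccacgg

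Il6st and Jak1 are on the study's list of predicted miR-140-3p.1 targets, which was drawn up for human genes. None of the other 7 genes is on that list or on those for the 5p arm and the annotated 3p form. The longest annotated 3′UTR of each mouse gene was searched for the complement of each seed. The miR-140-3p.1 match was present in 5 of the 9 genes (Stat3, Stat5b, Socs1, Il6st and Lifr) and in 20.2% of the 12988 tested genes with an annotated 3′UTR. For miR-140-3p.2 the match was present in 4 (Socs1, Il6st, Lifr and Osmr) and in 19.0% of those genes. The 3′UTRs of Lifr and Il6st are long, at 6320 and 5641 bases against a median of 1159 bases over all genes searched, and a longer sequence holds any word more often. In Jak1 neither match was found in the 1128 bases searched, and Jak2 and Socs3 held neither match as well. The stretches below show the miR-140-3p.1 match, in capitals, in the mouse transcripts of Il6st (chr13:112504829-112504857, plus strand, base 395 of the 3′UTR), Stat5b (chr11:100783033-100783061, minus strand, base 46) and Lifr (chr15:7194220-7194248, plus strand, base 3062), in mm10 coordinates. In Stat5b the match is followed by an A, the strongest kind of seed match, and in Lifr it overlaps the miR-140-3p.2 match. A match is a description of the sequence, not a site of binding.
Il6st: tttaaaagtgcCCTGTGGcacagtgtcca
Stat5b: tggaggaacttCCTGTGGatgttttaatt
Lifr: tgttggttgaaCCTGTGGtgtcccggcct

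Il6st, which encodes the shared chain gp130, was the most abundant of the 9 genes in both genotypes on the length-scaled TPM. Its level was 211, 372, 299.9 and 341 TPM in WT replicates 1 to 4 and 516, 613, 503 and 579 TPM in Mir140-null replicates 1 to 4. All Mir140-null libraries were above all WT libraries, and WT replicate 1 was the lowest of the 8. The mean went from 306 ± 69.7 TPM (SD, n = 4) to 553 ± 52.0 TPM (n = 4), a log2 fold change of 0.88 with a standard error (SE) of 0.18. Fold changes are given as Mir140-null minus WT on log2(TPM + 1), which understates the change of genes at a few TPM. The gene (ENSMUSG00000021756) lies at chr13:112464070-112510086 on the plus strand of mm10.

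Lifr, the partner chain for leukaemia inhibitory factor, was far below Il6st in length-scaled TPM. Its level was 6.63, 11.6, 10.1 and 14.5 TPM in the WT libraries and 15.9, 24.9, 18.1 and 20.6 TPM in the Mir140-null libraries. The groups did not overlap, but the highest WT library (replicate 4) and the lowest Mir140-null library (replicate 1) were close. The log2 fold change was 0.86 (SE 0.23), the widest error among the 9. Osmr, the partner chain for oncostatin M, was at 24.5, 38.2, 30.7 and 29.6 TPM in WT and 76.5, 68.2, 44.8 and 54.2 TPM in Mir140-null libraries. Here Mir140-null replicates 1 and 2, the libraries with low fibroblast markers, were the highest, and all Mir140-null libraries were above WT. Its log2 fold change of 0.95 (SE 0.20) was the largest of the 9. Lifr (ENSMUSG00000054263, chr15:7090614-7197489, plus strand) and Osmr (ENSMUSG00000022146, chr15:6813577-6874969, minus strand) are neighbours, with 216 kb and no other protein-coding gene between them. Within a library, the ratio of Lifr to Osmr TPM was 0.271, 0.304, 0.331 and 0.489 in WT and 0.208, 0.366, 0.405 and 0.379 in Mir140-null chondrocytes, and these ranges overlapped.

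Jak1 encodes the kinase most used by gp130. It was at 36.3, 59.9, 43.0 and 42.7 TPM in the WT libraries and at 65.0, 65.6, 73.3 and 73.4 TPM in the Mir140-null libraries. WT replicate 2 was the highest WT library and came near the lowest Mir140-null library without reaching it. The mean was 45.5 ± 10.1 TPM in WT and 69.3 ± 4.66 TPM in Mir140-null chondrocytes, a log2 fold change of 0.62 (SE 0.15). Jak2, the kinase of the growth hormone receptor, was at 22.7, 27.1, 19.8 and 22.0 TPM in WT and 51.8, 46.2, 40.5 and 40.4 TPM in Mir140-null libraries. No WT library came near the Mir140-null range, and the log2 fold change was 0.94 (SE 0.13). Mean Jak2 TPM were 1.95 times as high in Mir140-null as in WT chondrocytes. Jak1 (ENSMUSG00000028530) lies at chr4:101152367-101265282 on the minus strand and Jak2 (ENSMUSG00000024789) at chr19:29251828-29313080 on the plus strand.

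Stat3, the main STAT of gp130 receptors, had overlapping levels. It was at 86.9, 129, 97.3 and 98.7 TPM in WT and 96.0, 112, 126 and 115 TPM in Mir140-null libraries, and the highest value of all was that of WT replicate 2. The log2 fold change was 0.13 (SE 0.14), less than its error, and took the opposite sign (-0.04) after quantile normalization. Stat5b, which carries growth hormone signals, was the least abundant of the 9 genes in TPM, at 4.18, 3.49, 4.37 and 4.53 TPM in WT and 5.94, 5.78, 6.48 and 7.10 TPM in Mir140-null libraries. The groups were apart, with a log2 fold change of 0.51 (SE 0.13). The ratio of Stat5b to Stat3 TPM within a library was 0.0270 to 0.0481 in WT and 0.0516 to 0.0619 in Mir140-null chondrocytes, without overlap. Stat5b (ENSMUSG00000020919, chr11:100780731-100850724) and Stat3 (ENSMUSG00000004040, chr11:100885098-100939540) lie on the minus strand on either side of Stat5a. The Stat5a and Stat3 genes, on opposite strands, overlap by 72 bases.

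Socs3, the inhibitor that binds gp130 and the JAKs, was second to Il6st in mean TPM, a level per transcript length. It was at 258, 220.4, 282 and 295 TPM in WT and 177, 162, 289.8 and 186 TPM in Mir140-null libraries. Mir140-null replicates 1, 2 and 4 were below all WT libraries, whereas replicate 3 was within the WT range, so the groups overlapped. The log2 fold change was -0.40 (SE 0.19) with all libraries, -0.58 without Mir140-null replicate 3, -0.17 without Mir140-null replicates 1 and 2 (left out after seeing the data) and -0.18 with 1 factor of unwanted variation estimated from genes with little sign of a difference. Socs3 is also an early-response gene, and the immediate-early list given above was below WT in all 4 Mir140-null libraries; its part in the Socs3 levels was not tested. Socs1, which blocks the JAK catalytic site, was at 13.0, 16.3, 11.1 and 15.4 TPM in WT and 9.55, 11.7, 10.3 and 10.9 TPM in Mir140-null libraries. Its groups overlapped at WT replicate 3 and Mir140-null replicate 2, with a log2 fold change of -0.36 (SE 0.14). Socs3 (ENSMUSG00000053113) is at chr11:117966079-117970047 and Socs1 (ENSMUSG00000038037) at chr16:10782240-10785536, both on the minus strand.

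**Figure D2:**
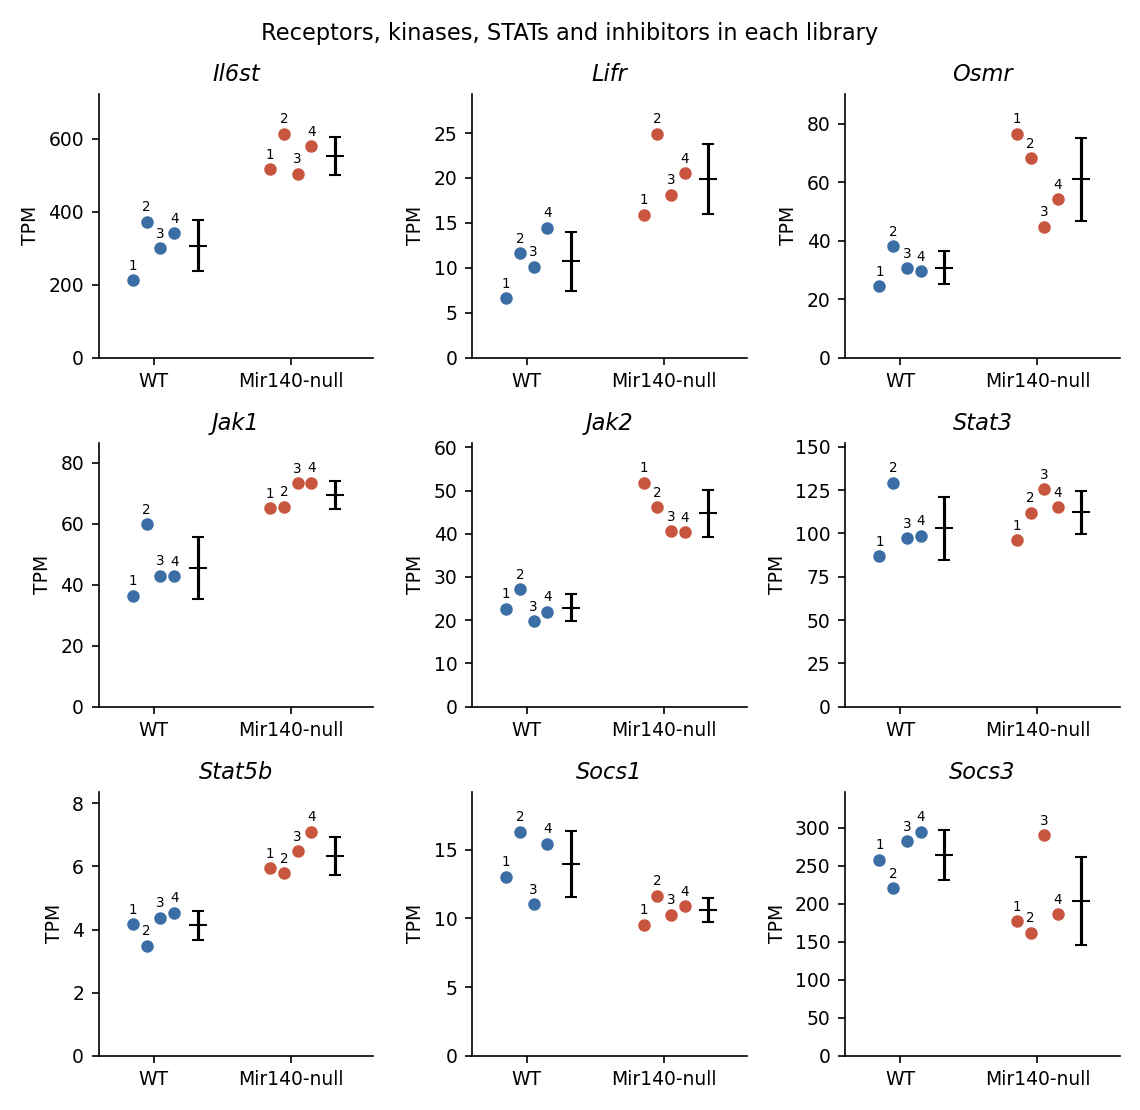
TPM (vertical axes, each starting at 0) of the 9 genes in the 4 WT (blue) and 4 Mir140-null (red) libraries, with replicate numbers, and the mean and SD of each group as black bars. For Il6st, Lifr, Osmr, Jak1, Jak2 and Stat5b every Mir140-null library was above every WT library, while the groups overlapped for Stat3, Socs1 and Socs3.

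The ratio of Socs3 to Il6st TPM, which does not depend on the scaling between libraries, was 1.22, 0.592, 0.940 and 0.864 in WT and 0.343, 0.264, 0.576 and 0.322 in Mir140-null libraries. All Mir140-null libraries were below all WT libraries, the closest being Mir140-null replicate 3 and WT replicate 2. The ratio of Jak2 to Jak1 TPM was 0.453 to 0.624 in WT and 0.5505 to 0.796 in Mir140-null libraries. That of Osmr to Il6st was 0.0869 to 0.116 and 0.0890 to 0.148, and for both ratios the groups overlapped. The genes were selected with their fold changes known, so little is added by ratios that do not overlap. In WT chondrocytes the order of mean TPM, a level per transcript length, was Il6st, Socs3, Stat3, Jak1, Osmr, Jak2, Socs1, Lifr and Stat5b. Neighbours in that order overlapped for Il6st and Socs3, for Jak1 and Osmr, for Osmr and Jak2, and for Socs1 and Lifr. In Mir140-null chondrocytes Lifr was above Socs1, Il6st no longer overlapped with Socs3, and the other genes kept the order.

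Across the transcriptome, 17177 genes reached at least 0.5 TPM in at least 4 libraries and were tested with limma. Of these, 1797 were called higher (10.5%) and 1100 lower (6.40%) in Mir140-null chondrocytes at an adjusted p under 0.05 (Benjamini-Hochberg method), or 16.9% in either direction. Of the 9 genes described here 6 were called higher and 0 lower, and for the same 6 (Il6st, Lifr, Osmr, Jak1, Jak2 and Stat5b) all Mir140-null libraries were above all WT libraries, as they were for 15.7% of all genes tested (groups apart in either direction, 25.9%). With 1 library left out, the number called higher was 1 without Mir140-null replicate 2, 2 without WT replicate 3, 4 without WT replicate 2, and 3 without WT replicate 1 or 4 or Mir140-null replicate 1, 3 or 4. Without Mir140-null replicate 3, Socs3 was called lower. The genes were selected with this comparison known, so nothing is read from these counts. Higher calls made up 62.0% of all calls, and with median-ratio scaling between libraries the numbers were 1368 higher and 1320 lower (50.9% higher).

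Other genes of the pathway were taken from lists made by known role: 101 genes besides the 9, of which 86 were tested. Of the 86, 26 were called higher (30.2%) and 2 lower (2.33%), and the median log2 fold change was 0.24, against -0.01 over all genes tested. For 27 of the 28 called genes, all except Clcf1, the groups did not overlap: all 4 Mir140-null libraries were above, or for the 2 lower genes below, all 4 WT libraries. These genes were picked by their calls in the same libraries, so little is added by groups that do not overlap. The lists too were made with earlier results of these data known.

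Ligands of gp130 receptors were measured for 7 of 11 genes, and 2 were called higher. Clcf1, which encodes a cytokine that acts through gp130 and was named after its values were seen, was at 15.3 to 27.4 TPM in WT and 25.1 to 48.0 TPM in Mir140-null libraries (log2 fold change 0.83, SE 0.24; limma, Benjamini-Hochberg adjusted p = 0.0478), and its groups overlapped. It was called in 2 of the 8 fits without 1 library (WT replicate 2 or Mir140-null replicate 3 left out), with log2 fold changes of 0.70 to 0.9976 over the 8. Lif, the most abundant ligand in TPM, was at 76.2, 92.3, 74.5 and 97.9 TPM in WT and 150, 131, 85.0 and 117 TPM in Mir140-null libraries. It missed the threshold (log2 fold change 0.48, SE 0.18; limma adjusted p = 0.109), and Mir140-null replicate 3 was within the WT range. Osm, which encodes oncostatin M, was under 0.5 TPM throughout. Of the other partner chains of gp130, 0 of 3 tested were called by limma (1 at an unadjusted p under 0.05); Il11ra1, the most abundant, was at 26.6 to 44.9 TPM in WT and 21.5 to 52.3 TPM in Mir140-null libraries.

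Among the other cytokine receptors, 6 of 15 tested were called higher and 1 lower. Il4ra, the interleukin-4 receptor chain and the most abundant of the list, was at 13.9, 29.3, 23.5 and 21.8 TPM in WT and 78.7, 62.0, 44.8 and 56.6 TPM in Mir140-null libraries. All Mir140-null libraries were above WT (log2 fold change 1.43, SE 0.24; limma adjusted p = 0.0114). Il13ra1, which pairs with Il4ra to bind interleukin-4 and interleukin-13, was at 6.68 to 9.02 TPM in WT and 12.7 to 14.6 TPM in Mir140-null libraries (log2 fold change 0.74, SE 0.12; limma adjusted p = 0.0112). Il31ra, which pairs with Osmr to form the interleukin-31 receptor, was at 0.278, 1.31, 0.589 and 0.448 TPM in WT and 7.70, 5.57, 2.30 and 2.65 TPM in Mir140-null libraries. Its log2 fold change was 1.67 (SE 0.34; limma adjusted p = 0.0181), and its call was lost without WT replicate 3 or 4 or Mir140-null replicate 2, with log2 fold changes of 1.41 to 1.88 over the fits without 1 library. Il31ra and Il6st are neighbours on chromosome 13, on opposite strands and 9.81 kb apart. Il15ra, Ifngr2 and Il10rb were also called higher, by 0.58 to 0.76 on the log2 scale. These calls were lost without Mir140-null replicate 2 or WT replicate 3 for all 3 genes, and also without WT replicate 4 for Il15ra, WT replicate 2 for Ifngr2, and Mir140-null replicates 1 and 3 and WT replicates 1 and 2, each in turn, for Il10rb. Their log2 fold changes stayed between 0.52 and 0.88. Il10ra was the receptor called lower, but it was under 0.7 TPM in every library (log2 fold change -0.49, SE 0.09; limma adjusted p = 0.0121).

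The remaining STAT genes included 4 tested, of which Stat6 and Stat5a were called higher. Stat6, the STAT of the interleukin-4 receptor, was at 11.05 to 11.7 TPM in WT and 20.3 to 25.3 TPM in Mir140-null libraries. Mir140-null replicate 2 was below the other Mir140-null libraries, and all 4 were above all WT libraries (log2 fold change 1.01, SE 0.11; limma adjusted p = 0.00402). Stat5a, the paralog of Stat5b, was at 6.97 to 10.3 TPM in WT and 14.1 to 17.4 TPM in Mir140-null libraries (log2 fold change 0.70, SE 0.15; limma adjusted p = 0.0188); its call was lost without Mir140-null replicate 2, with a log2 fold change between 0.59 and 0.75 over the fits without 1 library. The ratio of Stat5a to Stat5b TPM within a library was 1.595 to 2.94 in WT and 1.99 to 2.92 in Mir140-null libraries, and these ranges overlapped. Of the other JAK kinases, 0 of 2 were called by limma (1 at an unadjusted p under 0.05), and Tyk2, the more abundant, was at 2.66 to 3.34 TPM in WT and 2.003 to 3.36 TPM in Mir140-null libraries.

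Inhibitors of the SOCS family other than Socs1 and Socs3 numbered 6, all tested, of which Cish and Socs5 were called higher. Cish, the inhibitor induced by STAT5, was at 4.503, 2.95, 2.04 and 2.60 TPM in WT and 20.3, 22.4, 12.7 and 9.27 TPM in Mir140-null libraries. Mean Cish TPM were 5.35 times as high in Mir140-null chondrocytes, and every Mir140-null library was above WT (log2 fold change 2.05, SE 0.30; limma adjusted p = 0.00789). Its values were highest in Mir140-null replicates 1 and 2, and without these libraries the log2 fold change was 1.59. Socs2, another STAT5-induced inhibitor and the most abundant of the list, was at 12.1 to 19.4 TPM in WT and 13.6 to 24.7 TPM in Mir140-null libraries and was not called (log2 fold change 0.44, SE 0.22; limma adjusted p = 0.197). Among PIAS proteins and phosphatases, 2 of 8 were called higher, Pias2 and Ptpn2. Ptpn2, which dephosphorylates JAK1 and STATs, was at 61.7 to 68.9 TPM in WT and 149, 151, 96.5 and 103 TPM in Mir140-null replicates 1 to 4 (log2 fold change 0.89, SE 0.16; limma adjusted p = 0.0138). Of the adaptors and ubiquitin ligase subunits, 3 of 11 were called higher: Gab1, Cul5 and Rnf7, by 0.49 to 0.67 on the log2 scale. Of the calls in these 3 groups, those of Cish and Ptpn2 held in all 8 fits without 1 library. Gab1 lost its call without Mir140-null replicate 2 or WT replicate 1 or 3 (log2 fold changes of 0.60 to 0.75), and Pias2 without Mir140-null replicate 1 or 2 or WT replicate 1, 3 or 4 (0.45 to 0.57). Cul5 kept its call only without WT replicate 2 or Mir140-null replicate 3 (0.43 to 0.58), Rnf7 only without WT replicate 2 (0.54 to 0.81), and Socs5 only without Mir140-null replicate 4 (0.47 to 0.63).

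**Figure D3:**
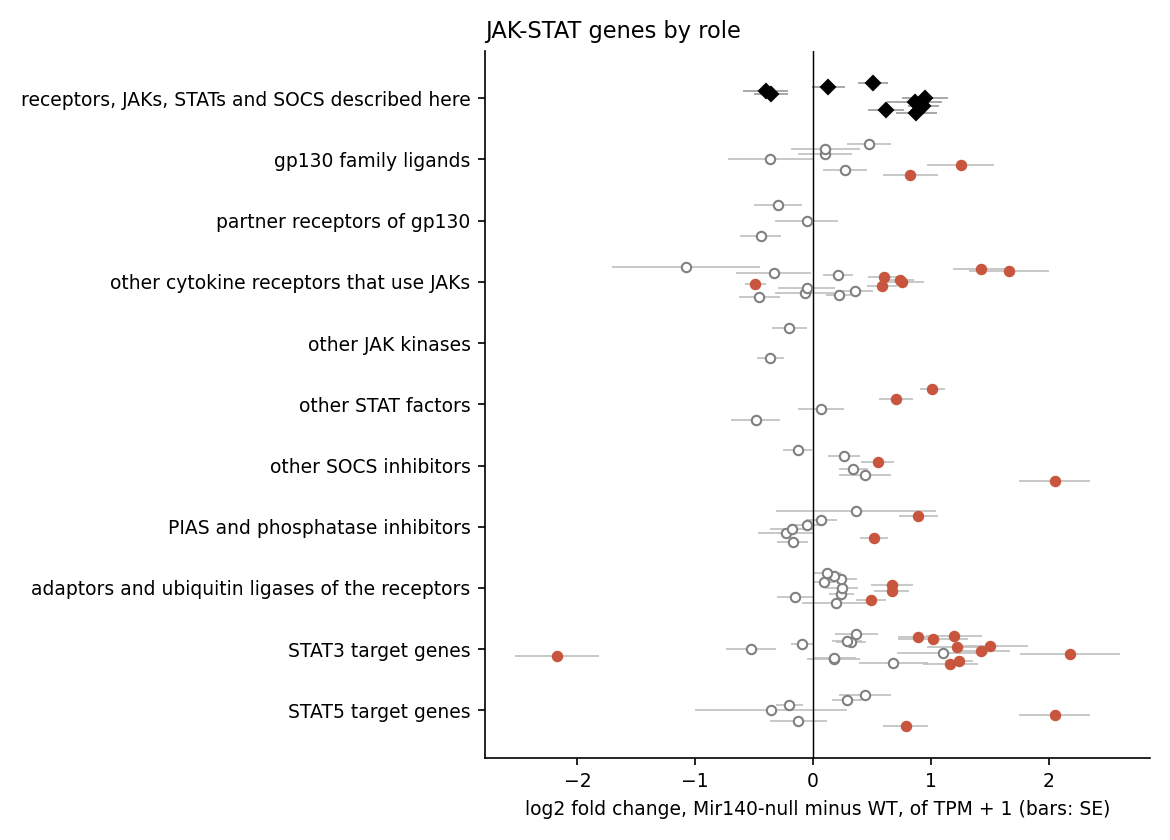
Log2 fold change (Mir140-null minus WT, of TPM + 1, horizontal axis) of the tested genes of 10 lists and of the 9 genes, with SE bars; filled red circles mark genes called by limma, open circles genes not called, and black diamonds the genes selected by name, which were not tested as a group. Cish at 2.05, Icam1 at 2.18 and Fos at -2.17 are the outermost called genes.

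Genes known as STAT3 targets in other cells were tested in 19 of 20 cases. Of these, 9 were called higher and 1 lower, with a median log2 fold change of 0.89. Without Mir140-null replicates 1 and 2, left out after seeing the data, the median of the same 19 genes was 0.36, against 0.07 over all genes tested. Icam1, an adhesion molecule, was at 93.4, 58.1, 46.7 and 68.3 TPM in WT and 629, 379, 168 and 191 TPM in Mir140-null libraries (log2 fold change 2.18, SE 0.42; limma adjusted p = 0.0158). Mir140-null replicates 1 and 2 were again highest, and without them the log2 fold change was 1.46. Ccl2, a monocyte chemokine, had the smallest p of the pathway genes, with 50.3 to 65.2 TPM in WT and 119, 121, 144 and 144 TPM in Mir140-null libraries (log2 fold change 1.24, SE 0.12; limma adjusted p = 0.0034). Timp1, an inhibitor of matrix metalloproteinases, was at 173 to 323 TPM in WT and 414 to 786 TPM in Mir140-null libraries (log2 fold change 1.20, SE 0.24; limma adjusted p = 0.0171). Lcn2, Lbp, Serpina3n and Bcl2l1 were called higher as well, by 0.89 to 1.504 on the log2 scale, and so were Il4ra, given above, and Saa3, which stayed under 4 TPM. The calls of Lcn2 and Lbp were lost without Mir140-null replicate 2 or WT replicate 3 or 4, with log2 fold changes of 1.24 to 1.71 and 1.01 to 1.41 over the fits without 1 library, and that of Saa3 was lost in all 8 (0.81 to 1.177). Fos was the gene called lower, at 2761, 951, 1418 and 1541 TPM in WT and 254, 305, 571 and 311 TPM in Mir140-null libraries (log2 fold change -2.17, SE 0.35; limma adjusted p = 0.00992); it also belongs to the immediate-early list. Many of these genes are known to respond to NF-kB and other factors besides STAT3, and no measure of STAT3 activity is among the values used here.

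STAT5 targets were called higher in 2 of 7 cases, Cish and Bcl6. Bcl6 lost its call without Mir140-null replicate 1 or 2 or WT replicate 3 or 4, with log2 fold changes of 0.62 to 0.89 over the fits without 1 library. Igf1, chosen after its values were seen, was not called (log2 fold change -0.36, SE 0.65; limma adjusted p = 0.731). Igf1 was at 1.91 and 1.21 TPM in Mir140-null replicates 1 and 2 and at 13.7 and 10.0 TPM in replicates 3 and 4, while the WT libraries were between 4.01 and 10.7 TPM.

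STAT dimers bind the palindrome TTCNNNGAA, and it was searched for in RefSeq promoters of GRCm38.p6 (250 bases before to 50 after each gene start). The motif reads the same on both strands. It was in 8.30% of 32851 promoters and, since a gene may have several, in at least 1 promoter of 9.55% of 27025 genes. All 9 genes had a promoter in the table (11 in all), and 1 of them, Socs3, held the motif. Of 77 other pathway genes with a promoter, 12 held it. It was present in 5 of the 18 genes called higher that had a promoter (Il31ra, Cish, Gab1, Icam1 and Bcl6) and in 4 of the 49 tested and not called. The stretches of Socs3 (chr11:117969502-117969530, minus strand, motif starting 154 bases before the RefSeq start), Cish (chr9:107296655-107296682, plus strand, at the RefSeq start) and Icam1 (chr9:21015888-21015916, plus strand, 42 bases before) are shown because Cish and Icam1 were called higher in all 8 fits without 1 library, while the Socs3 groups overlapped. For Socs3 and Cish the RefSeq start lies inside the GENCODE gene, whose own start is farther upstream. Capitals mark the motif, which Cish holds at 2 adjacent places. A match does not show that a STAT binds there.
Socs3: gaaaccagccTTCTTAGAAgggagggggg
Cish: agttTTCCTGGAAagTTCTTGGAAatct
Icam1: ggcgcgaggtTTCCCGGAAagtggccccg

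Predicted miR-140 targets among the pathway genes numbered 15 on the study's human lists: 3 for the 5p arm, 6 for the shifted 3p form and 8 for the annotated 3p form, with 2 genes on more than 1 list. Of the 15, Socs5, Pias2, Gab1, Rnf7 and Bcl2l1 were called higher and none lower. Higher calls made up 30.2% of the 86 pathway genes tested and 10.5% of all genes tested. Nothing about predicted targets is read from this count. Socs5, listed for miR-140-3p.1, was at 2.72 to 3.41 TPM in WT and 4.01 to 5.98 TPM in Mir140-null libraries (log2 fold change 0.55, SE 0.14; limma adjusted p = 0.0348), and it was called in 1 of the 8 fits without 1 library. The mouse 3′UTRs searched for Socs5, Pias2 and Rnf7 held no match to either 3p seed. Ghr, the growth hormone receptor and another listed miR-140-3p.1 target, was at 20.4 to 23.6 TPM in WT and 23.8 to 29.3 TPM in Mir140-null libraries and was not called (log2 fold change 0.22, SE 0.11; limma adjusted p = 0.192). Lif, given above, Shc1 and Vegfa are listed for the same form and were not called. Cbl, Socs4, Socs7, Ptpn1 and Sos1 were not called either, and Epor was not tested. Jak2, Osmr, Lifr and Stat5b, whose groups did not overlap, are on none of the lists.

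For the 3 genes with the largest absolute fold changes, the most similar profiles over the 8 libraries were sought among 8010 protein-coding genes with a mean of at least 5 TPM, by the root mean square difference of mean-centred log2(TPM + 1). Osmr was closest to Piezo1, Shf and Hmga1, with differences of 0.08, 0.09 and 0.09. Jak2 was closest to Isg20l2, Hspa13 and Pom121, each with a difference of 0.07. Notch2 and Sept9 were among the 3 closest to Il6st, with differences of 0.08 and 0.10. Piezo1, a mechanically gated ion channel, was at 138, 233, 185 and 193 TPM in WT and 449.6, 378, 244 and 299.7 TPM in Mir140-null libraries, so that it, like Osmr, was highest in Mir140-null replicates 1 and 2.

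Without Mir140-null replicates 1 and 2, an alternative chosen after seeing the data, the log2 fold changes of the 9 genes were 0.85 for Il6st, 0.84 for Lifr, 0.68 for Osmr, 0.70 for Jak1, 0.80 for Jak2, 0.24 for Stat3, 0.60 for Stat5b, -0.35 for Socs1 and -0.17 for Socs3. Jak1, Stat3 and Stat5b were farther from 0 than with all libraries and the other 6 nearer to it, with the widest moves those of Osmr and Socs3, then Jak2. Over all 19 alternatives Jak2 was between 0.78 and 1.02, Il6st between 0.71 and 0.98, and Osmr between 0.68 and 1.09. In that fit of 4 WT against 2 Mir140-null libraries, limma called 5 of the 86 pathway genes higher, and 357 genes higher and 210 lower in all.

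**Figure D4:**
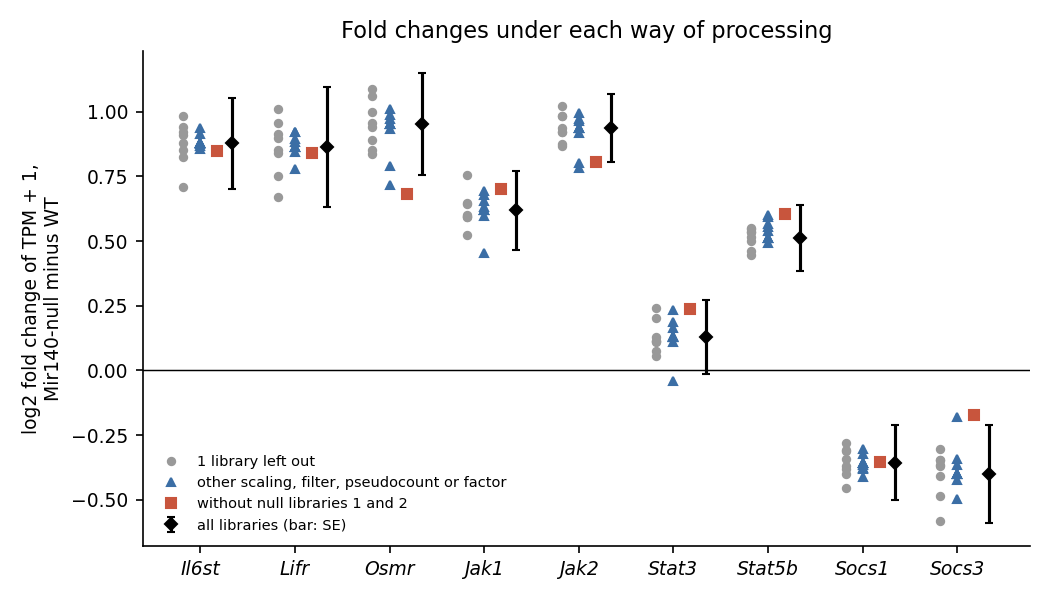
Log2 fold change (Mir140-null minus WT, vertical axis) of the 9 genes with each library left out (grey circles), with other scaling, filter, pseudocount, block or factors (blue triangles), without Mir140-null replicates 1 and 2 (red squares) and with all libraries (black diamonds, SE bars). Stat3 is the only gene of the 9 whose sign differs between these settings, from -0.04 to 0.24.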

How the data were processed

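The 4 WT and 4 Mir140-null rib chondrocyte libraries were grouped by the genotype in their labels. The values that the authors deposited are transcripts per 1000000 (TPM) for each Ensembl gene, made with Salmon (version not given in the sources used here) on the mm10 transcriptome. The submitters' processing notes also name FastQC 0.11.7 and DESeq2, which the authors used for their own comparison and which was not run here. The TPM hold neither scaling between libraries nor the factors of unwanted variation (RUVSeq) that the study used. The number of reads per gene is unknown, so no counting error is given, and p-values measure the spread between these libraries.

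Identifiers listed on several lines (540 repeated lines per library) were counted once, and 99.8% were paired with GENCODE M21 symbols, whose positions are on mm10. A gene was tested when 4 or more libraries had 0.5 TPM or more. The test was limma 3.58.1 (R 4.3.3) on log2(TPM + 1), with a mean-variance trend, genotype as the only term and two-sided p-values adjusted by the Benjamini-Hochberg method over all 17177 genes. The script was tested on simulated data. Tables and figures were made with Python 3.11.15, NumPy 2.4.6, pandas 2.3.3 and matplotlib 3.10.9.

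The 9 genes, the pathway lists and the marker lists were chosen with earlier results of these data known. Named genes were the 9, the 25 called pathway genes with the smallest p, the most abundant receptor, ligand, kinase, STAT and SOCS of the lists, predicted targets among the pathway genes, and the 3 nearest profiles of 3 genes. Other genes named (markers, Clcf1, Saa3, Osm and Igf1) were chosen after their values were seen. Markers were those of chondrocytes, fibroblasts and perichondrium, osteoblasts, macrophages, neutrophils, lymphocytes, endothelium, skeletal muscle, erythroid cells and adipocytes, besides immediate-early and heat-shock genes. Predicted targets came from the study's human lists, 3′UTRs from GENCODE M21 transcripts after the annotated stop codon, and microRNA and promoter sequences from RefSeq (GRCm38.p6). Alternatives were a pseudocount of 0.1, no filter, a mean of at least 5 TPM, median-ratio scaling, quantile normalization, TPM without mitochondrial genes, a replicate block, 1 factor of unwanted variation of either of 2 kinds, and leaving out each library. After seeing the data, leaving out Mir140-null replicates 1 and 2 and a median-ratio scaling over all genes above 0 were added.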

Additional observations from a re-analysis of the deposited data

Results flagged for a closer look

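In 4 of 96 groups of 4 libraries examined (the 9 genes, the 28 called pathway genes and the summed marker lists, in each genotype), 1 library was separated from the other 3 by more than Dixon's 95% critical value. Chance gives about 1 in 20 such groups. None of the 9 genes was among them. Stat6 was at 20.3 TPM in Mir140-null replicate 2, below the 24.999 to 25.3 TPM of the other Mir140-null libraries, yet above all WT libraries. Stat5a was at 6.97 TPM in WT replicate 3, against 9.70 to 10.3 TPM in the other WT libraries. Saa3 was at 3.95 TPM in Mir140-null replicate 1 and at 1.68 to 1.98 TPM in the other Mir140-null libraries. The chondrocyte markers summed to 60143.9 TPM in WT replicate 3, against 73668 to 75339 TPM in the other WT libraries.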

How the results depend on the processing

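Counts of called genes depended on the libraries and settings. With 1 factor estimated from the genes that showed least sign of a difference, 979 genes were called higher and 426 lower, with 12 pathway genes and 2 of the 9 genes higher. With 1 factor from residuals, 2016 genes were lower, 4 of them pathway genes. Without a filter, which tests 36617 genes, the counts were 977 and 539, with 3 of the 9 genes higher, and at a mean of at least 5 TPM 605 genes were lower, 1 of them a pathway gene. Without Mir140-null replicates 1 and 2, chosen after seeing the data and with fewer samples, 357 genes were higher and 210 lower, with 5 pathway genes higher and 0 lower and 1 of the 9 genes (Jak2) higher. Of the 28 called pathway genes, 5 were called in that fit. The other scalings and pseudocount kept all these counts within 1.5 times; the median-ratio scaling over all genes above 0, also added later, gave 1584 higher and 1130 lower.

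The labels do not say whether replicate numbers pair the samples, and the main fit did not pair them. Deviations of same-numbered WT and Mir140-null libraries correlated at 0.031, 0.016, 0.069 and -0.009, and those of differently numbered libraries at -0.085 to 0.072. With 4 libraries per genotype, such values cannot settle whether a pairing exists. With the replicate block, 671 genes were called higher and 454 lower, with 12 pathway genes higher, 1 lower, and 3 of the 9 genes higher.

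Leaving out 1 library gave 779 to 1553 genes higher and 419 to 1214 lower, 11 to 24 pathway genes higher and 2 to 3 lower, and 1 to 4 of the 9 genes higher and 0 to 1 lower. The lower call was that of Socs3 without Mir140-null replicate 3. Numbers of pathway genes higher fell by more than 1.5 times without Mir140-null replicate 1 (17), Mir140-null replicate 2 (11), WT replicate 3 (12) and WT replicate 4 (14). Genes higher fell as far without Mir140-null replicate 1 (1123) or 2 (779) and WT replicate 1 (1035), 3 (793) or 4 (879), and genes lower without Mir140-null replicate 1 (585) or 2 (423) and WT replicate 1 (665), 2 (662), 3 (440) or 4 (419). The 9 genes went from 6 called higher to 3 without Mir140-null replicate 1, 3 or 4 or WT replicate 1 or 4, to 2 without WT replicate 3 and to 1 without Mir140-null replicate 2. Of the 28 called pathway genes, 12 were called in all 8 of these fits (Ccl2, Stat6, Cish, Il13ra1, Il4ra, Ptpn2, Icam1, Serpina3n, Bcl2l1 and Timp1 higher, Fos and Il10ra lower) and 16 lost the call in at least 1. The cause was not tested, beyond the smaller number of samples.

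Of the 9 genes, Stat3 was the only 1 whose log2 fold change took both signs over the alternatives, -0.04 to 0.24; several alternatives change the test and not the fold change. For the 28 pathway genes, 381 values were on the same side of the threshold and 146 were not, all in the same direction.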
